A study of Mus musculus with 6 samples.

Results

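The 10 genes described here, *Runx2*, *Sp7*, *Alpl*, *Enpp1*, *Ank*, *Phex*, *Ibsp*, *Spp1*, *Dmp1* and *Sparc*, are the core genes of osteoblast identity and bone mineralization. They were taken by name from a list of such genes, without a threshold on their values but with earlier results of these data known. All 10 had a probe among the 37074 gene names of the array. The arrays carried RNA of osteoclast cultures, not of osteoblasts. Bone marrow cells from the tibias and femurs of mice aged 6 to 8 weeks were kept in 10 ng/ml M-CSF, and the cells that floated free, without the attached ones, were then induced for 5 days with RANKL, the cytokine that drives osteoclast formation, at 50 ng/ml beside M-CSF at 30 ng/ml. The control group was 3 *Ano1fl/fl* mice, which carry *Ano1* flanked by loxP sites and no Cre, and the other group was 3 *Ctsk-Cre;Ano1fl/fl* littermates, in which Cre made under the cathepsin K promoter is meant to excise *Ano1*, a calcium-activated chloride channel. Both groups carried the floxed *Ano1* alleles, and the sex of the mice was not given in the sources used here. Cre driven by cathepsin K acts only in cells that switch that gene on, so cells that do not use it keep *Ano1* intact.

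Osteoblasts build bone in steps that these genes mark. The transcription factors *Runx2* and *Sp7* (osterix) commit a mesenchymal cell to the lineage. *Enpp1* makes pyrophosphate, which blocks crystal growth, *Ank* takes part in its export, and *Alpl*, tissue-nonspecific alkaline phosphatase, breaks it down. *Ibsp*, *Spp1* and *Dmp1* encode acidic matrix phosphoproteins of the SIBLING family that bind mineral, and *Phex*, *Dmp1* and the family member *Mepe* belong to the axis through which osteocytes control phosphate. Osteoclasts come from the blood-forming lineage, and of these genes *Spp1* is the one they are well known to make themselves.

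Each of the 6 arrays held 59305 transcript spots for 56605 distinct probes, of which 56.45% to 58.93% of spots were well above background and 0 were saturated. Over the 20645 genes tested, arrays of 1 group correlated at 0.995 to 0.997 and arrays of different groups at 0.947 to 0.951. A probe is called at background on an array where the scanner software did not mark it as well above background. The single *Ano1* probe, which starts at base 4391 of its transcript, was at background on all 6 arrays, with processed signals of 3.22 to 3.91, so the targeted gene could not be used to check the labels. The osteoclast markers *Acp5*, *Ctsk*, *Mmp9* and *Nfatc1* had higher signals in the group labelled *Ctsk-Cre;Ano1fl/fl*, a direction opposite to the one the study gives for these transcripts by PCR. Every direction given here therefore rests on the labels alone. Precision is limited by the 3 arrays of each group. Adjusted p-values come from a linear model in limma fitted to every gene or probe tested, with Benjamini-Hochberg adjustment.

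Of the 10 genes, *Sparc*, *Alpl*, *Ank* and *Enpp1* had higher signals on arrays labelled *Ctsk-Cre;Ano1fl/fl*, by 28.2-fold, 45.9-fold, 4.03-fold and 2.30-fold at their brightest probe. *Runx2* was lower by 1.37-fold with an adjusted p just under the threshold of 0.05. *Sp7* and *Spp1* did not pass the test, and *Phex*, *Ibsp* and *Dmp1* were at background throughout. A gene was tested where its brightest probe rose above background on the 3 arrays of either group, and 7 of the 10 did. All 7 did so on the full set of 6 arrays, so none of them was tested on the strength of 1 group alone. The choice of probe for *Alpl* did turn on 1 group. On the *Ano1fl/fl* arrays its 45.9-fold probe was the dimmer of 2 tested, at a mean log2 signal of 4.49 against 5.37. The other probe rose by 1.79-fold. In such bulk samples a change in the share of a cell type and a change in RNA per cell cannot be told apart.

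The background was high in this comparison, since 10826 of the 20645 genes tested passed. Of all genes tested, 23.4% were called higher and 29.0% lower in *Ctsk-Cre;Ano1fl/fl*, against 4 and 1 of the 7 tested here. Among all genes tested 9.88% were higher by more than 2-fold and 7.19% lower by more than 2-fold, against 4 and 0 of these 7. The groups did not overlap for 6 of the 7, and for 64.0% of all genes tested. The median log2 difference was 1.20 over the 7 and -0.06 over all genes tested. The 10 genes were chosen with earlier results of these data known, so these shares describe the genes and test nothing.

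**Figure D1:**
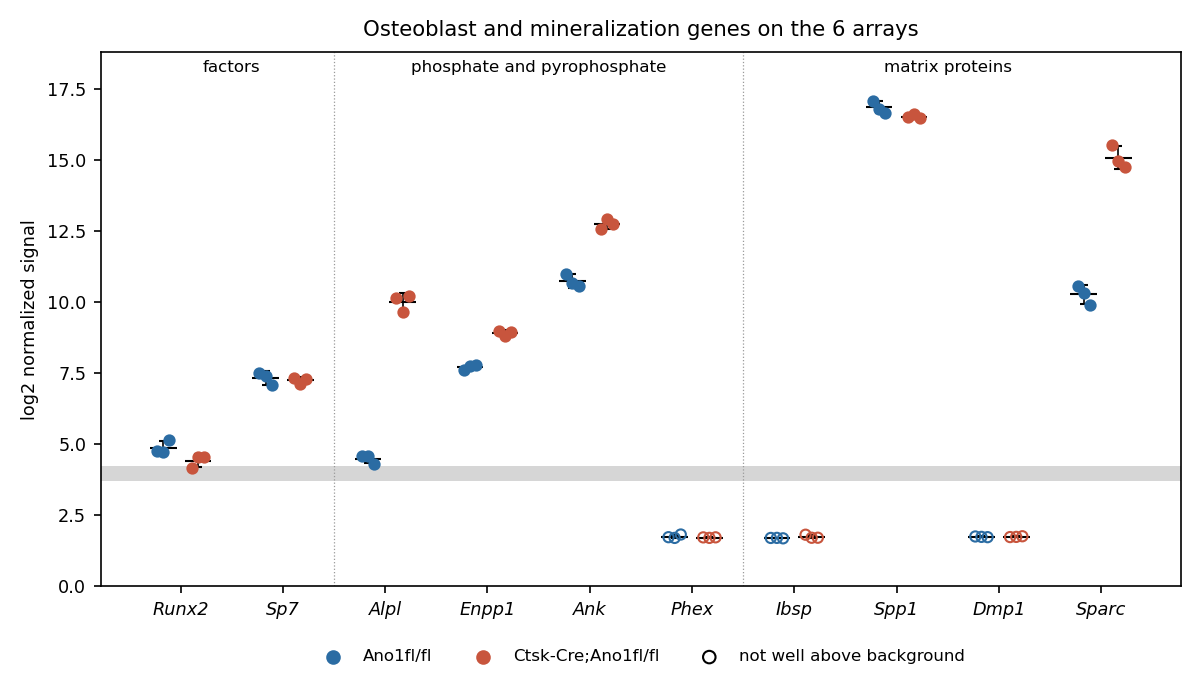
Log2 normalized signal of the brightest probe of each of the 10 genes on the 3 *Ano1fl/fl* arrays (blue) and the 3 *Ctsk-Cre;Ano1fl/fl* arrays (red), with the mean and SD of each group in black. Open circles are probes at background on all arrays of the group, and the grey band spans the lowest signal well above background on the 6 arrays, 3.70 to 4.22. *Phex*, *Ibsp* and *Dmp1* lie under the band on every array, and the groups are apart for *Alpl*, *Enpp1*, *Ank* and *Sparc*, which are higher in *Ctsk-Cre;Ano1fl/fl*, and more narrowly for *Runx2* and *Spp1*, which are lower.

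Neither of the factors that commit cells to the osteoblast lineage was called higher. *Runx2*, the earliest of them, had log2 normalized signals of 4.76, 4.74 and 5.14 on the *Ano1fl/fl* arrays, and 4.17, 4.56 and 4.54 in the *Ctsk-Cre;Ano1fl/fl* group. The groups did not overlap, and all 6 values lay close to the lowest signals well above background, 3.70 to 4.22. The difference was -0.46 on the log2 scale (SE 0.16, 95% confidence interval -0.84 to -0.08, adjusted p = 0.0494, n = 3 a group, limma), and the call did not hold in 13 of the 16 other analyses tried. It was lost whichever array was left out, with adjusted p between 0.062 and 0.121. With normexp background correction the difference shrank to -0.11.

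The *Runx2* values come from a probe that starts at base 1660 of its transcript. A second probe, A_65_P18181, was well above background on 2 *Ano1fl/fl* arrays and 1 *Ctsk-Cre;Ano1fl/fl* array, with processed signals of 14.9, 22.9 and 25.1 against 23.7, 11.1 and 14.5, so its groups overlapped. The remaining probe, A_52_P55876, starts at base 192 and was at background on all 6 arrays. The tested probe, at chr17:44744925-44744984 of mm9 on the minus strand, is shown because the single fall among the 10 genes rests on it.
Runx2 A_52_P460545: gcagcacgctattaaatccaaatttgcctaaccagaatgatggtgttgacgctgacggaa

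*Sp7*, the zinc-finger factor that acts after *Runx2*, was above background at 1 of its 3 probes. That probe, A_66_P117454, read 7.52, 7.41 and 7.07 on the *Ano1fl/fl* arrays, and 7.34, 7.12 and 7.30 in the *Ctsk-Cre;Ano1fl/fl* group on the log2 scale. These groups overlapped, and the difference was -0.08 (SE 0.14, interval -0.41 to 0.25, adjusted p = 0.641, limma), an interval that holds changes of up to 1.33-fold down and 1.19-fold up. The other probes, A_52_P236709 and A_55_P2742054, were at background on all 6 arrays, with processed signals of 3.17 to 10.4 and 3.04 to 3.67. The mean over all 3 probes differed by 0.31 (adjusted p = 0.0459), a value to which the 2 probes at background contribute, where readings have no order. A_55_P2742054 is shown because it starts at base 1097, before the other 2 probes, and was at background in both groups. It maps to chr15:102188735-102188794 of mm9, minus strand.
Sp7 A_55_P2742054: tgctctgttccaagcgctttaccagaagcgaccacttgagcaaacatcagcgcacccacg

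The other osteoblast transcription factors went both ways. Of the 17 listed, 13 were tested, 6 were higher and 3 lower, with a median difference of 0.50. *Twist2*, a mesenchymal factor that restrains osteoblast maturation, was at background on the *Ano1fl/fl* arrays. It was tested, and counted among the 6, through the *Ctsk-Cre;Ano1fl/fl* arrays alone. Its limma adjusted p of 1.5e-05 thus rests on control readings at background. It was at least 7.31-fold higher on the *Ctsk-Cre;Ano1fl/fl* arrays. That limit applies to background-subtracted signals, and the log2 difference of *Twist2* was 1.58 with normexp correction, which adds an offset of 50, and 2.33 in the series matrix, which is not background-corrected, both smaller than the limit. Of the 40 called genes that the naming rule took from the lists, 14 had a difference over 1.5 times smaller with normexp and 10 in the series matrix. *Lef1*, a nuclear partner of Wnt signaling, rose by 1.86 on the log2 scale (0.54 as the mean of all its probes), *Runx3* by 1.02 and the homeobox factor *Msx1* by 0.85. *Tcf7*, another Wnt partner, fell by 0.77, a call lost with the methods' t-test. *Cbfb*, the subunit with which all RUNX proteins bind DNA, fell by 0.38 and *Runx1*, the blood-lineage RUNX factor, by 0.27. The call for *Runx1* (adjusted p = 0.0311) was lost in 6 other analyses, with adjusted p of 0.0782 to 0.0878 in the 4 that left out *Ano1fl/fl* replicate 1 or 3 or *Ctsk-Cre;Ano1fl/fl* replicate 2 or 3. *Dlx5*, *Dlx6* and *Zfp521* were at background on all arrays.

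*Alpl*, the enzyme that removes pyrophosphate at the bone surface, had the largest fold change of the 10 genes at its brightest probe. A_51_P494125, which starts at base 2453 of the transcript, read processed signals of 22.4, 25.7 and 23.0 on the *Ano1fl/fl* arrays, and 1185, 659 and 1133 in the *Ctsk-Cre;Ano1fl/fl* group. Every *Ctsk-Cre;Ano1fl/fl* array was far above every control array. After normalization the means were 4.49 ± 0.16 and 10.01 ± 0.31 on the log2 scale (SD, n = 3 each), a difference of 5.52 (SE 0.17, interval 5.10 to 5.94, adjusted p = 1.2e-05, limma). Of all genes tested, 0.349% had a larger difference in either direction. The difference passed in all 16 other analyses, at 3.60 with normexp correction, 4.34 from the series matrix and 3.18 as the mean of both probes. With normexp and in the series matrix *Sparc* had the larger difference of the pair, at 4.75 and 4.77.

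A second *Alpl* probe changed much less. A_66_P134078 starts at base 665 and spans 1102 bases of the genome with its 60 bases, so it crosses an intron. It read 40.6, 49.9 and 42.2 on the *Ano1fl/fl* arrays, and 74.8, 50.5 and 83.3 in the *Ctsk-Cre;Ano1fl/fl* group. The groups did not overlap, although *Ctsk-Cre;Ano1fl/fl* replicate 2 lay close to the highest control before normalization. The difference was 0.84 on the log2 scale or 1.79-fold (SE 0.17, interval 0.43 to 1.25, adjusted p = 0.00703, limma over 31848 probes). It was 0.40 with normexp and 0.55 in the series matrix. Taken within each array, the log2 ratio of A_51_P494125 to A_66_P134078 was higher by 4.68 in *Ctsk-Cre;Ano1fl/fl*, with an SD of 0.05 among the *Ano1fl/fl* arrays and 0.14 among the others (n = 3 each), so the probes changed unequally. The 2 sets of ratios did not overlap, and the exact two-sided permutation p was 0.1, the smallest that 3 against 3 arrays can give. The transcript that the array files give for A_66_P134078 was not matched in the reference used here. Which probe follows the *Alpl* transcripts of these cells was not tested. The weaker probe lies at chr4:137309921-137311022 of mm9, minus strand, and is shown because the size of the *Alpl* change turns on it.
Alpl A_66_P134078: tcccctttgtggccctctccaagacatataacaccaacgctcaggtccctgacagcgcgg

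The genes on the other side of the pyrophosphate balance rose as well. *Enpp1*, the ectoenzyme that makes pyrophosphate from ATP, read processed signals of 188, 236 and 267 on the *Ano1fl/fl* arrays, and 536, 360 and 479 in the *Ctsk-Cre;Ano1fl/fl* group at its brightest probe, A_66_P111135. After normalization the lowest value of the *Ctsk-Cre;Ano1fl/fl* group was 1.00 log2 units above the highest control, and the difference was 1.20 (SE 0.09, interval 0.99 to 1.41, adjusted p = 1.5e-04, limma). A dimmer probe nearer the 3′ end, A_51_P408584, rose by 1.66 or 3.16-fold (SE 0.23, adjusted p = 0.00161). With normexp it rose by 0.80, less than the 0.99 of A_66_P111135, and in the series matrix by 1.05 against 1.06. Its change and that of A_66_P111135 were 0.46 apart, with an exact two-sided permutation p of 0.2, in a design whose smallest p is 0.1. The remaining probe, A_55_P2713490, was at background on all 6 arrays, with processed signals of 3.05 to 3.69. A_66_P111135 spans 3361 bases of the genome, chr10:24361749-24365109 of mm9 on the minus strand, and so crosses an intron.
Enpp1 A_66_P111135: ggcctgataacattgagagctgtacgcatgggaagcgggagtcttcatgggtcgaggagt

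*Ank*, the membrane protein that governs extracellular pyrophosphate, had 1 probe. Its log2 normalized signals were 11.01, 10.68 and 10.56 on the *Ano1fl/fl* arrays, and 12.58, 12.93 and 12.77 in the *Ctsk-Cre;Ano1fl/fl* group. The groups were separated by 1.57 log2 units. The difference was 2.01 or 4.03-fold (SE 0.15, interval 1.65 to 2.37, adjusted p = 1.6e-04, limma), and it stayed between 1.91 and 2.14 in all 16 other analyses.

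*Phex*, the osteocyte endopeptidase whose loss causes renal phosphate wasting, was not detected. Its probes at bases 6092 and 2041 of the transcript read 3.04 to 3.96 and 3.04 to 3.69, at or near the floor of the scanner software on all 6 arrays. No fold change is given for it, nor for the other genes at background in both groups. The probe at base 2041, chrX:153676300-153676359 of mm9 on the minus strand, is shown as the one farther from the 3′ end.
Phex A_66_P114823: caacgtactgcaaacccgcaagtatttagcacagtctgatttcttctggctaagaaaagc

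The wider group of phosphate and pyrophosphate genes held 5 that were higher and 0 lower among the 13 tested of 17 listed, while 8 did not pass. In the other analyses 3 to 7 were higher and 0 to 1 lower. The median difference of the group was 0.18. *Smpd3*, a neutral sphingomyelinase needed for mineralization, rose by 2.61 on the log2 scale (adjusted p = 3.1e-04) and was above background on 2 of the control arrays. The phosphate exporter *Xpr1* rose by 0.94, the FGF receptor *Fgfr1* by 0.93 and *Galnt3*, which glycosylates FGF23, by 0.91. As the mean of all its probes *Xpr1* differed by 0.21 and was not called (adjusted p = 0.231). *Enpp3* and the FGF23 co-receptor gene *Kl* were at background on all arrays.

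**Figure D2:**
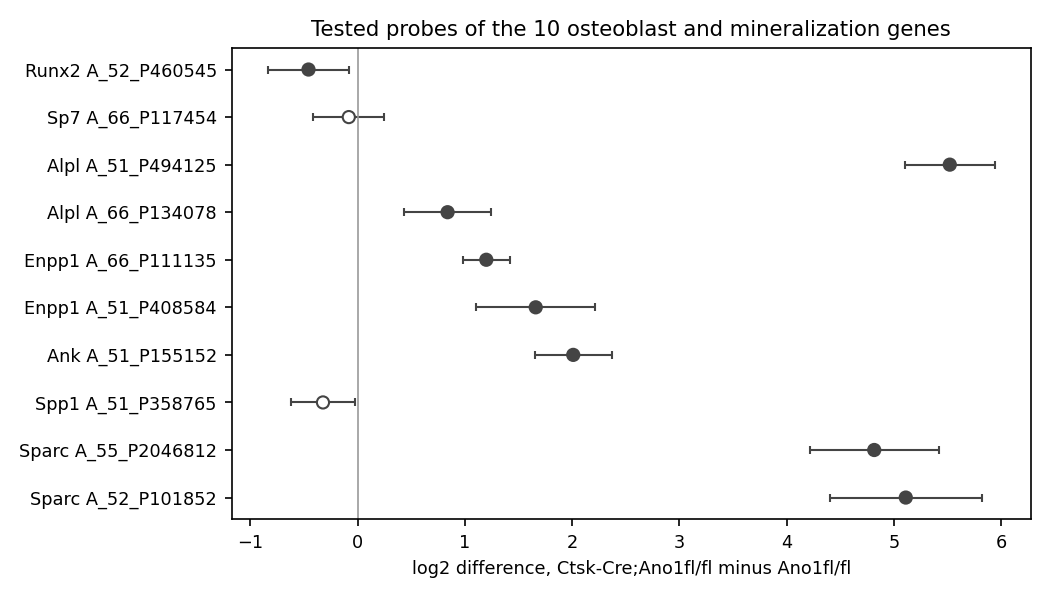
Difference in log2 normalized signal, *Ctsk-Cre;Ano1fl/fl* minus *Ano1fl/fl*, for the 10 tested probes of the 10 genes, with 95% confidence intervals from limma (n = 3 a group). Filled circles passed at an adjusted p under 0.05 and open circles did not. The *Alpl* probes stand at 5.52 and 0.84, whereas the *Sparc* probes stand at 4.82 and 5.11.

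The 20 probes of the 10 genes bear the same split. Of these, 10 were tested, 7 were higher, 1 was lower and 2 did not pass, where 21.8% of all 31848 probes tested were higher and 30.6% lower. A further 9 were at background on all arrays, and 1 was above it on some. The gene-level value used the brightest probe over all 6 arrays, a choice that favours a probe bright in either group, and this bears most on *Alpl*.

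*Sparc*, the collagen-binding matrix protein osteonectin, was the matrix gene that rose. A_55_P2046812 gave processed signals of 1466, 1455 and 1134 on the *Ano1fl/fl* arrays, and 45867, 26987 and 25543 in the *Ctsk-Cre;Ano1fl/fl* group. Even the lowest of the latter was well beyond the highest control, and *Ctsk-Cre;Ano1fl/fl* replicate 1 was the highest of all. On the log2 scale the means were 10.28 ± 0.34 and 15.09 ± 0.40 (SD, n = 3 each), a difference of 4.82 (SE 0.25, interval 4.20 to 5.43, adjusted p = 4.9e-05, limma). It was 2.93 as the mean of all 3 probes, dim probe included, and passed in all 16 other analyses.

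A second *Sparc* probe gave nearly the same change. A_52_P101852 read 189, 193 and 150 on the *Ano1fl/fl* arrays against 8326, 4046 and 3926, a difference of 5.11 or 34.5-fold (SE 0.29, adjusted p = 5.8e-05). Within an array, the log2 ratio of the first probe to the second fell by 0.29, with SDs of 0.03 and 0.12 in the 2 groups (exact two-sided permutation p = 0.1, the smallest possible). The remaining probe, A_55_P2713955, was at background on all 6 arrays. A_52_P101852 spans 2658 bases, chr11:55209449-55212106 of mm9 on the minus strand, crosses an intron and is shown as a second place in the transcript with a rise of this size.
Sparc A_52_P101852: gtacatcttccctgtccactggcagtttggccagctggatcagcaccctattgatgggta

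*Spp1* (osteopontin), which osteoclasts and macrophages make as well as osteoblasts, was bright on all 6 arrays and did not pass the test. Its processed signals were 141790, 131694 and 117220 on the *Ano1fl/fl* arrays, and 92267, 83336 and 86158 in the *Ctsk-Cre;Ano1fl/fl* group, with no overlap. After quantile normalization the values were 17.09, 16.82 and 16.67 against 16.53, 16.61 and 16.48 on the log2 scale, still without overlap. The difference was -0.32 or 1.25-fold down (SE 0.12, interval -0.61 to -0.03, adjusted p = 0.0645, limma). It passed in 4 of the 16 other analyses, with normexp correction (adjusted p = 0.0292), the series matrix (0.0416), trend and robust settings (0.0251) and without *Ano1fl/fl* replicate 3 (0.0334). The difference was negative in all of them and ranged from -0.42 to -0.21.

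*Ibsp* (bone sialoprotein) and *Dmp1*, both markers of mature osteoblasts and osteocytes, were not detected. *Ibsp* read 3.19, 3.04 and 3.67 on the *Ano1fl/fl* arrays, and 3.85, 3.22 and 3.25 in the *Ctsk-Cre;Ano1fl/fl* group. *Dmp1* read 3.26, 3.16 and 3.80 against 3.30, 3.26 and 3.37. The lowest processed signal well above background was 14.2 to 18.4 on the 6 arrays, so values of this size have no order. Over all gene names, 38.8% were likewise at background on all arrays at their brightest probe, against 3 of the 10 genes here.

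*Dmp1*, *Ibsp* and *Spp1* are neighbours on chromosome 5, in a cluster with *Dspp* and *Mepe* whose 5 probes lie within 262.3 kb of mm9 (chr5:104607570-104869847). Across it the readings were uneven. *Dspp*, the dentin gene, *Dmp1* and *Ibsp* were at background on all 6 arrays, whereas *Mepe* and *Spp1* were well above it on all 6. *Mepe*, an osteocyte gene, had low processed signals of 25.3, 31.9 and 30.5 on the *Ano1fl/fl* arrays against 17.1, 18.3 and 18.3, and its log2 difference of -0.55 passed (SE 0.12, adjusted p = 0.012). The difference of *Mepe* was -0.28 in the series matrix and -0.11 with normexp, where it was not called (adjusted p = 0.138).

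The other bone matrix genes mostly rose, in the direction of *Sparc*. Of 23 listed, 14 were tested, 11 were higher and 2 lower, against 23.4% and 29.0% of all genes tested. With the filter on all 6 arrays 7 were higher. *Ogn*, *Smoc1*, *Smoc2* and *Postn* fail that filter, being above background on 1 or 0 of the control arrays. The median log2 difference of the 14 was 3.16, or 3.10 with *Smoc2*, which was at background on the control arrays, at its lower limit. *Postn* (periostin), above background on 1 of the control arrays, rose by 6.50, the type I collagen genes *Col1a1* and *Col1a2* by 6.12 and 5.39, and the collagen chaperone *Serpinh1* by 5.26. *Mepe* and *Spock3*, a proteoglycan of the SPARC family, were the 2 that fell, the latter by 0.45. The call for *Spock3* (adjusted p = 0.036) was lost in 11 other analyses, with adjusted p of 0.0682 to 0.108 in the 4 that left out *Ano1fl/fl* replicate 2 or 3 or *Ctsk-Cre;Ano1fl/fl* replicate 2 or 3. The osteocalcin genes *Bglap*, *Bglap2* and *Bglap3* were well above background on 0 of the *Ano1fl/fl* arrays and on 1, 2 and 2 of the *Ctsk-Cre;Ano1fl/fl* arrays, and were not tested. They are near-identical copies, so their probes may share signal. *Omd* and *Ahsg* were at background throughout, as *Dspp* was.

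Genes of the osteoblast and osteocyte lineage gave 6 higher and 1 lower among the 12 tested of 18 listed, with a median of 0.63. *Tnfrsf11b* (osteoprotegerin), the decoy receptor for RANKL, was at background on the *Ano1fl/fl* arrays and was tested through the *Ctsk-Cre;Ano1fl/fl* arrays alone. Its limma adjusted p of 8.8e-05 thus rests on control readings at background. It was at least 11.6-fold higher on the *Ctsk-Cre;Ano1fl/fl* arrays. Its log2 difference was 1.68 with normexp and 2.33 in the series matrix, smaller than that limit. *Cd200* rose by 3.46 on the log2 scale, the parathyroid hormone receptor gene *Pth1r* by 1.51 and the early osteocyte gene *Pdpn* by 1.40, while *Fgfr3* fell by 0.85. *Fgfr3* was above background on 1 of the *Ctsk-Cre;Ano1fl/fl* arrays. Its difference was -0.30 as the mean of all its probes, where it was not called (adjusted p = 0.129), and -0.19 with normexp. *Pth1r* was above background on 1 of the control arrays, and its call (adjusted p = 0.0423) was lost in 7 other analyses, among them those without *Ano1fl/fl* replicate 2 (0.113), *Ano1fl/fl* replicate 3 (0.116) and *Ctsk-Cre;Ano1fl/fl* replicate 2 (0.052). Without *Ctsk-Cre;Ano1fl/fl* replicate 1 the difference of *Pth1r* was 0.97, and with normexp 0.41. *Sost*, *Dkk1*, *Tnfsf11*, *Wif1*, *Kcnk2* and *Reln* were at background on all arrays. The first is the osteocyte product sclerostin, and *Tnfsf11* encodes RANKL itself.

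**Figure D3:**
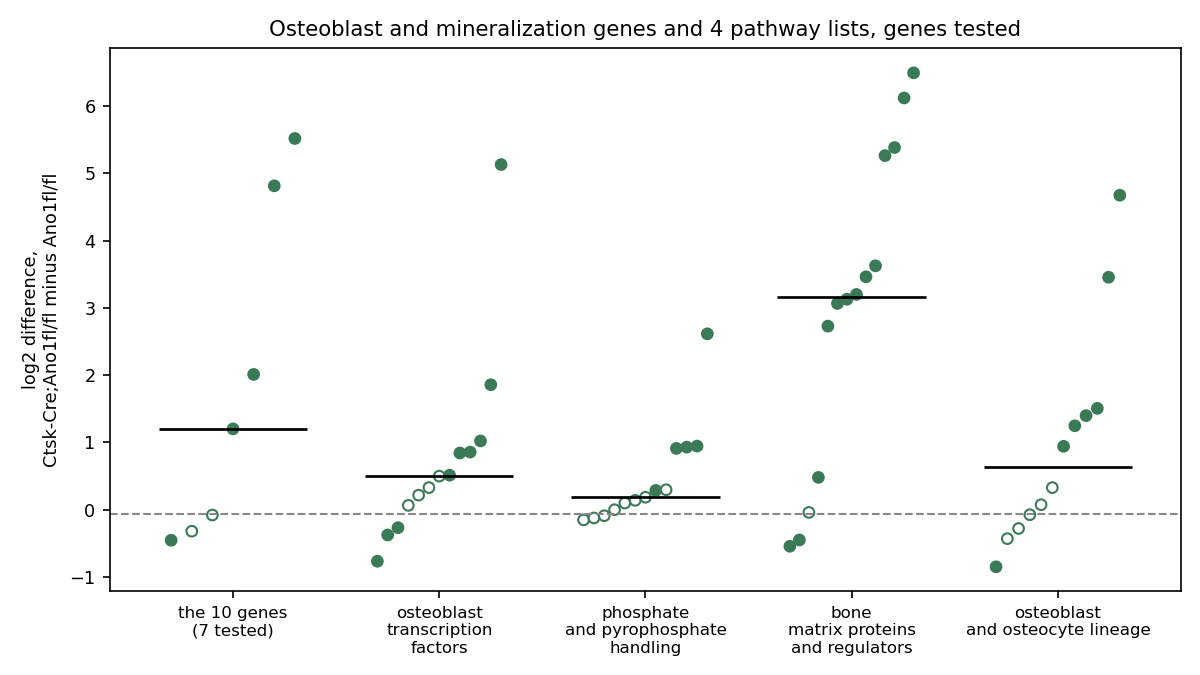
Log2 difference, *Ctsk-Cre;Ano1fl/fl* minus *Ano1fl/fl*, of each tested gene among the 10 and in 4 lists of related genes, with filled circles for genes that passed limma at an adjusted p under 0.05. Black lines are list medians (1.20, 0.50, 0.18, 3.16 and 0.63 from left to right) and the dashed line is the median of all genes tested, -0.06. The bone matrix list lies highest.

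Markers of stromal cells, which attach to the dish and which the transfer of floating cells alone would deplete, mostly rose, like *Sparc* and *Alpl*. All 16 listed were tested, 14 were higher and 1 (*Lepr*) was lower, with a median difference of 3.90. Their summed normalized signal was 24350 to 26366 on the *Ano1fl/fl* arrays and 82410 to 120155 on the *Ctsk-Cre;Ano1fl/fl* arrays. None of the defining stromal markers was at background on the *Ctsk-Cre;Ano1fl/fl* arrays, and *Lum* was at background on the control arrays. The brightest were *Acta2*, *Fn1*, *Col1a2* and *Timp3*, which rose by 0.54, 3.75, 5.39 and 3.01. As the mean of all probes *Acta2* rose by 2.39 and *Col1a2* by 3.17. The stromal and bone matrix lists share 2 genes, *Col1a1* and *Col1a2*. The stromal sum, *Sparc* and *Enpp1* were highest on *Ctsk-Cre;Ano1fl/fl* replicate 1, as was *Alpl* before normalization. After normalization *Alpl* was highest on replicate 3, and *Ank* was lower on replicate 1 than on the other arrays of that group. Without *Ctsk-Cre;Ano1fl/fl* replicate 1 the differences of *Sparc* and *Alpl* were 4.62 and 5.45. The part of stromal cells in the rise of *Sparc*, *Alpl*, *Ank* and *Enpp1* was not tested.

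Markers of the labelled cell type were present in both groups and moved too. All 12 osteoclast markers were tested, 11 were higher and 1 (*Tnfrsf11a*, the receptor for RANKL) was lower, with a median of 2.85. Their summed signal was 201462 to 217514 on the *Ano1fl/fl* arrays and 571308 to 647160 on the *Ctsk-Cre;Ano1fl/fl* arrays. Among the brightest, *Mmp9* rose by 4.36, *Ctsk*, whose promoter drives the Cre, by 3.17, *Acp5* by 0.84 and *Tcirg1* by 0.59. Of 11 macrophage markers *Adgre1* was higher by 0.80, and 4 were lower, *Cx3cr1* at -4.62, *Ccr2* at -3.36, *Mrc1* at -1.36 and *Fcgr1* at -0.91. The bright markers *Csf1r*, at -0.04, *Lyz2*, at 0.13, and *Cd68*, at 0.20, did not pass. *Cd68* passed in 4 other analyses, among them the mean of all its probes (0.32, adjusted p = 0.0194), and *Lyz2* in 1. Of 10 markers of neutrophils and their precursors 1 was higher and 7 lower, with a median of -1.33. Among the brightest, *Mpo* fell by 3.41 and *S100a8* by 0.60, whereas *S100a9*, at 0.20, and *Camp*, at -0.12, did not pass, and *Ltf* was the 1 that rose, by 0.33. The part of these shifts in the values of the 10 genes was not tested.

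Of the chondrocyte markers 4 of 10 were tested and 2 were higher, *Col2a1* and *Chad*. *Col2a1* was at background on the control arrays, was tested through the *Ctsk-Cre;Ano1fl/fl* arrays alone and was at least 4.32-fold higher. Its log2 difference was 1.07 with normexp and 1.73 in the series matrix, smaller than that limit. *Chad* rose by 0.35 with a call (adjusted p = 0.0487) that was lost in 13 other analyses. The other tested ones, *Sox9* and *Comp*, did not pass, although *Sox9* did as the mean of all its probes (1.39, adjusted p = 1.3e-04) and *Comp* did without *Ctsk-Cre;Ano1fl/fl* replicate 3 (0.82, adjusted p = 0.0306). *Acan*, *Col9a1*, *Col10a1*, *Matn3* and *Hapln1* were at background on all arrays. Among adipocyte markers 5 of 8 were tested, and *Fabp4* was higher by 1.04, while *Cebpa* fell by 0.54 and *Pparg* by 0.38, the last a call (adjusted p = 0.0363) lost in 7 other analyses. *Lpl*, at -0.09, did not pass, although it did as the mean of all its probes (-0.51, adjusted p = 0.036). *Adipoq* and *Plin1* were at background throughout. Among endothelial markers 5 of 8 were tested, and *Pecam1* was higher by 0.91 while *Kdr* and *Vwf* fell by 1.32 and 0.97, the former by 0.46 as the mean of all its probes. *Cdh5*, at -0.39, did not pass. The endothelial sum was 6108 to 7718 on the *Ano1fl/fl* arrays and 2920 to 3514 in the *Ctsk-Cre;Ano1fl/fl* group, and *Tek* and *Tie1* were at background throughout.

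**Figure D4:**
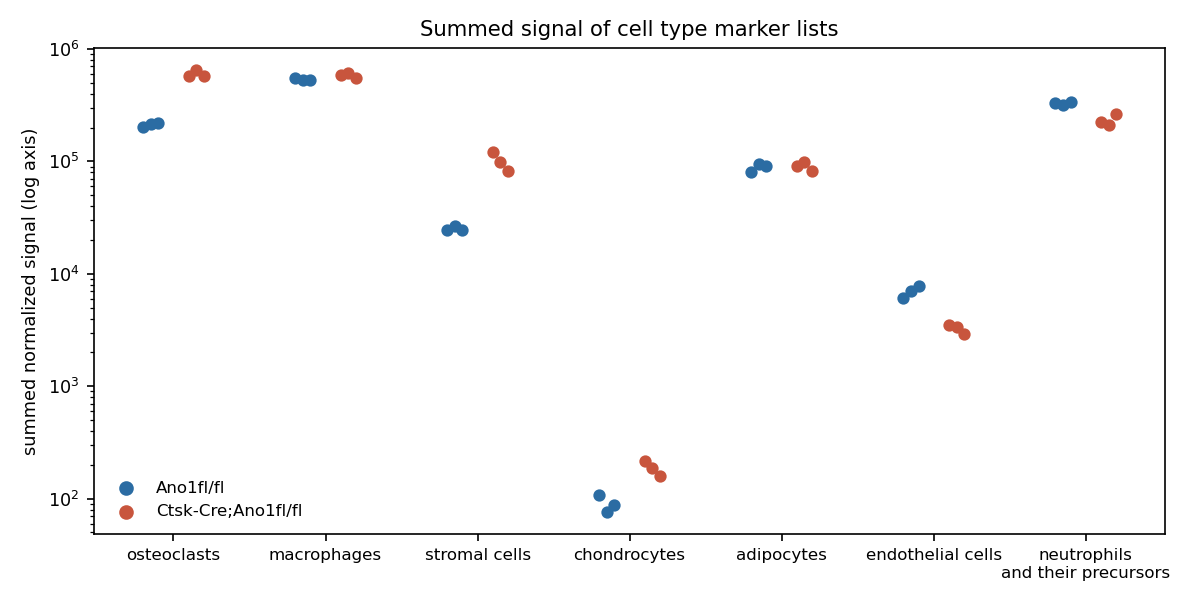
Summed normalized signal of the tested genes of 7 cell type marker lists on each array, on a log axis, for *Ano1fl/fl* (blue) and *Ctsk-Cre;Ano1fl/fl* (red). The osteoclast, stromal and chondrocyte sums are higher on every *Ctsk-Cre;Ano1fl/fl* array than on any control array. The chondrocyte sum holds *Col2a1*, which was at background on the control arrays. The endothelial and neutrophil sums are lower on every *Ctsk-Cre;Ano1fl/fl* array.

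The promoters of these genes were searched for the RUNX core, TGTGGT or its complement ACCACA on the other strand, in RefSeq windows of 300 bases (GRCm38.p6, 250 before and 50 after the start). Of the 10 genes, 9 had a window, and 5 of the 12 windows held the core, as did 16.8% of all 32851 windows. It was found in a window of *Runx2* (3 times), *Spp1*, *Dmp1*, *Enpp1* and *Sparc*, and these letters were not in the windows of *Alpl*, *Ibsp*, *Ank* and *Phex*. A match describes the letters of a window and says nothing of binding. The windows shown belong to 1 gene that rose, 1 that was bright and did not pass, and 1 that was at background, with the core in capitals. They lie at chr10:24712110-24712409 (minus strand, core 144 bases before the start), chr5:104434861-104435160 (plus strand, 128 bases before) and chr5:104202367-104202666 (plus strand, 164 bases before).
Enpp1 promoter: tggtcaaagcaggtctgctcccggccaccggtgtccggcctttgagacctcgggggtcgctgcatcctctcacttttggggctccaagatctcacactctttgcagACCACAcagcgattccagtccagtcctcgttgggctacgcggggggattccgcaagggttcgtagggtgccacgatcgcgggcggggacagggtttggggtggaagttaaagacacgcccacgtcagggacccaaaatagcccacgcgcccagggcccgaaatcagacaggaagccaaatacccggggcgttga
Spp1 promoter: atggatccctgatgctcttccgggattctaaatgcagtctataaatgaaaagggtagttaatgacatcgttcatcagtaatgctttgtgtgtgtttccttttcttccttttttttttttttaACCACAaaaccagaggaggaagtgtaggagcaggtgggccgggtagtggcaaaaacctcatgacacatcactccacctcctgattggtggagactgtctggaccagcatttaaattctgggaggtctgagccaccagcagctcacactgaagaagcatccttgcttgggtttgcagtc
Dmp1 promoter: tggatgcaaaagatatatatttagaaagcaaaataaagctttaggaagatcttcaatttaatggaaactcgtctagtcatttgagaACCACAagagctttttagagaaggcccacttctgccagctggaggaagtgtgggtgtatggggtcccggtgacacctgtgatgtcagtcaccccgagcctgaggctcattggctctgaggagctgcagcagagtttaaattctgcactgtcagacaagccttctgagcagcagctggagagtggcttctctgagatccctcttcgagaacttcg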

How the data were processed

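RNA of 6 osteoclast cultures, 1 per mouse, was hybridised to 1-colour Agilent SurePrint G3 arrays on 1 slide read in 1 scan. The authors deposited scanner intensities made with Agilent Feature Extraction 10.7.1.1, per the submitters' processing notes, as background-subtracted processed signals, and a series matrix of linear intensities that equalled the median spot brightness. The methods name quantile normalization. Here, log2 values of the processed signals were taken, outlier spots (143 to 252 an array) and control spots were left out, the arrays were quantile normalized with limma 3.58.1 in R 4.3.3 (files read with data.table, version 1.17.8), and spots of a probe were averaged. Normalized values are relative levels. Probes were ranked by them only to take a gene's brightest probe and name the brightest markers, and pairs of probes of a gene were compared by how their ratio changed between groups. A missing value removed 14 probes.

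A gene was represented by its brightest probe over the 6 arrays and tested where that probe was well above background, for at least 0.5 of its spots, on all 3 arrays of a group (20645 genes). The test was limma's linear model with eBayes, with p adjusted over all genes tested, or over 31848 probes for single probes. The fit was tested on simulated data. The methods do not pair littermates. Deviations from the group means correlated at 0.0044, -0.062 and -0.081 between arrays with the same replicate number. With 3 arrays a group these values cannot show whether mice were paired. Where a group was at background, the fold is a lower limit, set against each array's lowest signal that was well above it.

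The 10 genes, the 4 lists of related genes and the 7 marker lists were chosen with earlier results of these data known. All 10 genes are named with every probe, up to 4 called rises and 4 called falls of the largest size from each list of related genes, up to 4 of the brightest genes from marker lists, and genes at background on all arrays. *Ogn*, *Smoc1*, *Smoc2*, *Lepr*, *Lum*, *Tnfrsf11a*, *Nfatc1* and the osteocalcin genes were named after their values were seen. So were the called macrophage, neutrophil (*Ltf*), chondrocyte and endothelial markers. Gene names, probe positions (mm9) and probe sequences are those of the array files. Of the 20 probes, 16 had a RefSeq accession, and 15 of these, all but that of *Alpl* probe A_66_P134078, matched the reference under the same symbol. Promoters are RefSeq windows (GRCm38.p6), read in Python 3.11.15 with pandas 2.3.3; matplotlib 3.10.9 drew the plots. No genome sequence was used here. Alternatives were the series matrix, normexp background correction (offset 50), 75th percentile scaling, a filter on all 6 arrays or none, single probes, the mean of all probes, trend and robust settings, the methods' t-test, the replicate block, and each array left out.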

Additional observations from a re-analysis of the deposited data

How the results depend on the processing

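*Alpl*, *Enpp1*, *Ank* and *Sparc* were higher and passed in all 16 alternatives that tested them. The number of the 10 genes called higher was 4 throughout, also at more than 2-fold, except for 5 with the mean of all probes, where *Sp7* joined at 0.31 with 2 probes at background in its mean. The number called lower, 1 (*Runx2*), was 0 with 75th percentile scaling, without a filter on dim probes, with the mean of all probes, with the methods' t-test, at more than 2-fold and without any 1 array other than *Ano1fl/fl* replicate 3, so that it ranged from 0 to 1 over the arrays left out. With normexp, the series matrix, trend and robust settings and without that array the 1 gene called lower was *Spp1* instead. *Runx2* was called lower with the filter on all 6 arrays, with probes in place of genes and under the replicate block. Without 1 array the *Runx2* difference ranged from -0.53 to -0.33. The number of probes called among the 10 tested was 8, and 7 or 8 under each alternative.

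*Sp7* changed sign with the mean of all probes (0.31) and without *Ano1fl/fl* replicate 1, over a range of -0.21 to 0.012 as single arrays were left out. Of the marker genes, *Csf1r* changed sign with normexp (0.00097), the series matrix (0.0035) and without *Ctsk-Cre;Ano1fl/fl* replicate 3, over a range of -0.075 to 0.025, and *Lyz2* with the mean of all probes (-0.068). The dimmer *Enpp1* probe A_51_P408584 rose by 0.80 with normexp and 1.66 without it. The cause was not tested.

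For the bone matrix list the number called higher, 11, ran from 7 (filter on all 6 arrays) to 14 (no filter), and the number called lower, 2, from 0 to 2, at 0 with normexp and 1 in 10 other analyses. The number called higher was 3 to 7 for phosphate genes (5), 5 to 9 for transcription factors (6) and 4 to 6 for lineage genes (6), and the number lower was 0 to 1, 2 to 3 and 0 to 2. With normexp, *Postn* rose by 4.18, *Smpd3* by 1.00, *Galnt3* by 0.60 and *Msx1* by 0.29, and *Tcf7* fell by 0.49. As the mean of all probes *Serpinh1* rose by 2.58 and *Cd200* by 2.20.

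Under the replicate block, a paired analysis by the numbers in the labels, 4 of the 10 genes were higher and 1 was lower, as without it, and 4200 genes were higher and 5079 lower of all genes tested, against 4839 and 5987. The methods' t-test gave 4414 and 5260. Probes near background limit what can be seen, which bears on *Runx2*, *Phex*, *Ibsp*, *Dmp1* and the control level of *Alpl*.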
